A study of Mus musculus with 24 samples.

Results

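The genes described here encode the subunits of the mitochondrial respiratory chain and of ATP synthase, together with a few factors that carry the same gene names. They were chosen by name: every gene typed as protein-coding whose symbol starts with Nduf (a, b, c, s or v), Cox4 to Cox8, Uqcr, Atp5 or mt-, plus the 4 Sdh genes. This gave 103 genes of 24137 in the joined tables, 90 encoded in the nucleus and 13 in the mitochondrial genome. By complex, the nuclear members were 43 of complex I, 4 of complex II, 8 of complex III, 18 of complex IV and 17 of ATP synthase (complex V). Atp5sl was placed in complex V by its name. The mitochondrial members were 7 of complex I, 1 of complex III, 3 of complex IV and 2 of complex V. The 3 pseudogenes with matching names were left out.

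The respiratory chain oxidises NADH at complex I and succinate at complex II, and passes the electrons through complex III to oxygen at complex IV. The protons pumped on the way drive ATP synthase. Except for complex II, each complex is built from subunits of both genomes, so that transcripts made in the nucleus and in mitochondria have to meet in 1 structure. Hepatocytes are rich in mitochondria and use this chain to oxidise fatty acids and to power glucose and urea synthesis.

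The 24 libraries came from whole livers of adult mice, 1 library per mouse. In HF_TZD_KO (n = 5) a hepatocyte-specific PPARγ knockout was induced after 24 weeks of the HFCF diet, and rosiglitazone maleate was in that diet for the last 8 weeks. HF_TZD_C (n = 5) had the same drug and diet in mice with the control genotype, and HF_KO (n = 5) had the knockout and the diet without the drug, 10 weeks after induction. HF_C (n = 5) were control mice after 34 weeks on HFCF, labelled as nonalcoholic steatohepatitis, and LF_C (n = 4) were control mice on the LFCF diet, labelled low fat and healthy. PPARγ is a nuclear receptor, and rosiglitazone is a thiazolidinedione that activates it. The labels name neither the strain nor the means by which the deletion was induced, and sex is not given.

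Depth was 19.5 to 28.7 M counted reads per library, and 98 of the 103 members had reads in all 24. Pparg, the gene named as knocked out, was not lower in the libraries labelled knockout. It stood at 64.1 ± 5.32 CPM in HF_KO, against 32.4 ± 2.66 in HF_C (edgeR quasi-likelihood test, log2 fold change 0.99, adjusted p = 4.5e-05). It stood at 46.6 ± 12.4 CPM in HF_TZD_KO, against 27.0 ± 2.35 in HF_TZD_C (log2 fold change 0.79, adjusted p = 0.0042). Gene-level counts include exons outside a deletion and cells other than hepatocytes, so these values do not check the deletion, and the groups are called by their labels. LF_C replicate 4 and HF_TZD_KO replicate 5 had the lowest scaling factors (0.814 and 0.850 from edgeR's TMM method). The factors also differed between the diets, from 0.814 to 0.921 in LF_C and from 0.988 to 1.113 in HF_C, with no overlap. CPM are counts per 1e6 reads after TMM scaling over all 24 libraries, and errors are SD over mice. Called higher or lower means a Benjamini-Hochberg adjusted p under 0.05 over all genes tested, and fold changes are log2 with the first-named group on top.

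The mitochondrial members fell into 2 classes of level. Per kilobase of gene length, mt-Co1, mt-Cytb, mt-Nd1, mt-Nd2, mt-Nd4, mt-Nd5 and mt-Nd6 averaged between 2168 and 11445 CPM in HF_C and between 2806 and 16530 CPM in LF_C. In contrast, mt-Co2, mt-Atp6, mt-Co3, mt-Nd3 and mt-Nd4l averaged between 7.04 and 38.9 CPM per kilobase in HF_C and between 9.75 and 60.5 in LF_C. mt-Atp8 had at most 7 reads in any library. The low genes lie next to each other, from position 7013 to 10173 of the mitochondrial genome, between mt-Co1 and mt-Nd4, with mt-Atp8 among them. A nuclear stretch of chromosome 1 (24611535 to 24616197, minus strand, GRCm38) holds copies of the same genes, annotated as pseudogenes. In the GENCODE vM21 transcripts, between 97.6% and 99.9% of the 100-base windows of these 5 low genes also occurred in such a copy. The shares were 60.8% for mt-Nd4, 30.8% for mt-Co1, 3.19% for mt-Nd2 and 0 for mt-Nd1, mt-Nd5, mt-Nd6, mt-Cytb and mt-Atp8. Only annotated transcripts were compared. No copy is listed between those of mt-Atp6 (to 24614651) and mt-Co2 (from 24614885), the genes on either side of mt-Atp8. The 0 for mt-Atp8 therefore does not cover that stretch, and its few reads are uncertain too.

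The first 60 bases of mt-Co3 (MT:8607-8666, plus strand) and of its copy Gm28437 (chr1:24613912-24613971, minus strand) are shown because reads from either cannot be told apart by sequence, and the 2 differ at 0 of 783 aligned bases.
mt-Co3: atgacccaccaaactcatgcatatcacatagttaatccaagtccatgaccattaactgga
Gm28437: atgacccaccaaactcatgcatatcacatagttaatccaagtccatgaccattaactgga
The copy of mt-Co1, Gm29216, covers only the end of that gene. The place where the likeness begins is shown for mt-Co1 (MT:6381-6440, plus strand) and Gm29216 (chr1:24616138-24616197, minus strand), with the 6 differing bases in capitals.
mt-Co1: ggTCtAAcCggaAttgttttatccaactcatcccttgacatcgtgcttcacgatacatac
Gm29216: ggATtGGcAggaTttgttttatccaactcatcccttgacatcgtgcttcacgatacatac
Over all 24 libraries, 18320 reads were counted for mt-Co3 and 18080 for Gm28437, which the tables list under a clone name. For mt-Co2 and its copy Gm28661 the totals were 16867 and 18909, and for mt-Atp6 and Gm10925 they were 13228 and 27369. By contrast, mt-Co1 had 11716898 reads and its copy Gm29216 had 11810. The levels of mt-Co2, mt-Atp6, mt-Co3, mt-Nd3 and mt-Nd4l are therefore uncertain, and how far shared reads set them was not tested.

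**Figure D1:**
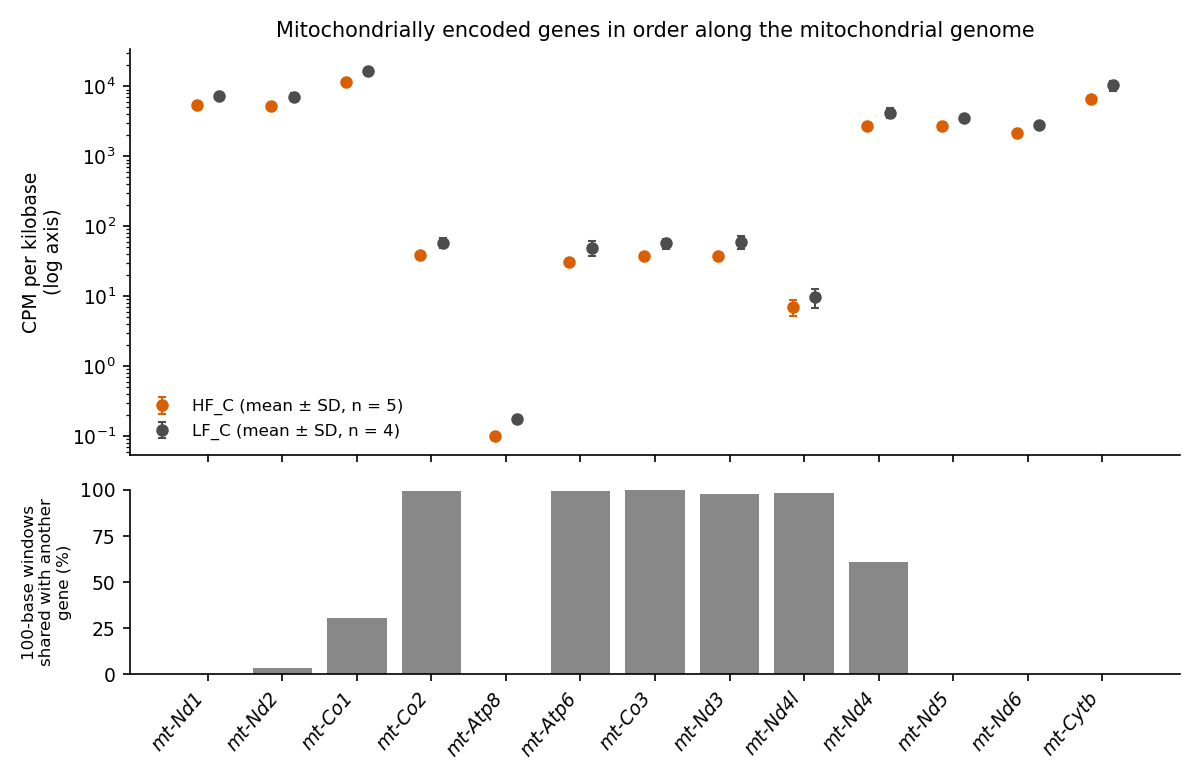
Mitochondrially encoded genes in their order along the mitochondrial genome. The upper panel gives CPM per kilobase on a log axis (mean ± SD over 5 HF_C and 4 LF_C libraries, with no SD drawn for mt-Atp8, which had at most 7 reads), and the lower panel gives the share of 100-base windows also found in another gene. The 5 genes with shares from 97.6% to 99.9% average at most 60.5 CPM per kilobase, and 7 others at least 2168.

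Relative to other genes, transcripts of the chain were lower in control livers on HFCF than on LFCF. Members of all 5 complexes were called lower. Of the 86 nuclear members tested, 56 (65.1%) were lower in HF_C than in LF_C and 0 were higher, against 19.2% lower and 21.4% higher among all 14772 genes tested. Of the 12 mitochondrial members tested, 11 were lower and 0 higher, with mt-Nd4l (-0.48, adjusted p = 0.163) not past the threshold. The median log2 fold change was -0.39 for nuclear and -0.57 for mitochondrial members, and -0.03 over all genes. No HF_C library overlapped the LF_C libraries in 37 nuclear and 11 mitochondrial members, all of them lower in HF_C, against 14.6% of all genes below and 19.0% above. In whole tissue, fewer cells of a type and less RNA of a gene per cell cannot be told apart. In the authors' deposited table of this comparison, 68 members were lower and 1 higher at their adjusted p under 0.05.

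The size of this difference depended on the scaling. Without a scaling factor, on library totals, the median of all genes moved to 0.24 and genes called over the whole table shifted to 35.9% higher and 6.0% lower. On that scale 8 nuclear members were lower and 3 higher (Ndufa4l2, Atp5s and Ndufaf7), and 7 mitochondrial members were lower. Relative to the median of all genes, the nuclear median was -0.37 with TMM and -0.36 with library totals, and the mitochondrial median was -0.54 with both. Leaving out 1 library gave between 31 and 64 nuclear members lower. The counts moved by more than 1.5 times without HF_C replicate 1 (34), 3 (31) or 5 (36), while 38 were lower without LF_C replicate 4. The median over nuclear members stayed between -0.45 and -0.26 in these 9 fits, and 11 mitochondrial members were lower in each.

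Summed over members, the same dependence was seen. Nuclear members took 0.972, 1.04, 0.904, 1.02 and 0.977% of the counted reads in the HF_C libraries and 1.01, 0.977, 0.986 and 1.15% in the LF_C libraries, so the groups overlapped. After TMM scaling the sums lay between 0.812 and 1.05% in HF_C and between 1.06 and 1.41% in LF_C, with no overlap. Mitochondrial members took 4.97, 4.82, 4.81, 4.84 and 4.77% of the counted reads in HF_C and 5.94, 5.39, 5.59 and 6.11% in LF_C, which did not overlap on either scale. The ratio of mitochondrial to nuclear reads, which no scaling factor affects, was between 4.64 and 5.32 in HF_C and between 5.33 and 5.86 in LF_C. The other HFCF groups overlapped LF_C in this ratio (4.83 to 5.69 in HF_KO, 4.54 to 5.50 in HF_TZD_C and 4.10 to 6.12 in HF_TZD_KO).

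**Figure D2:**
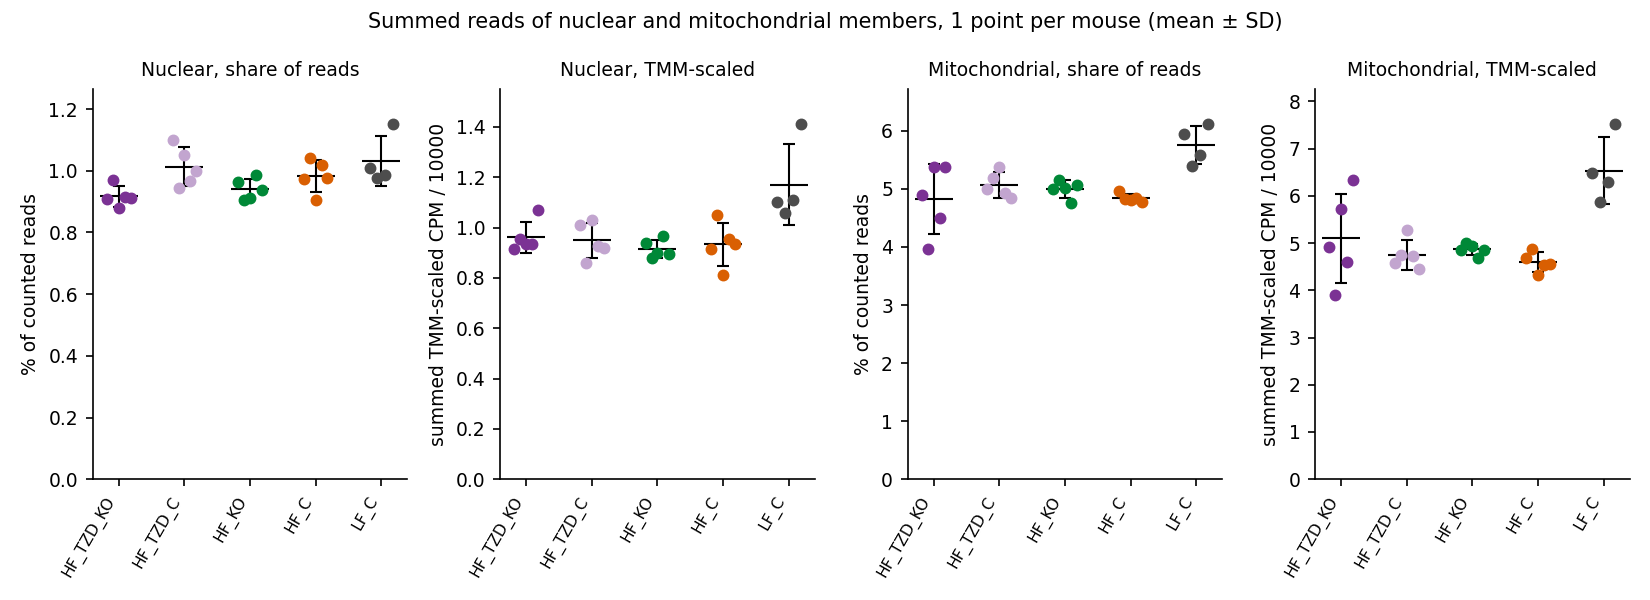
Summed reads of the 90 nuclear and 13 mitochondrial members in each library, as a share of counted reads and as TMM-scaled CPM given as a percentage, with mean ± SD by group. LF_C stands above the 4 HFCF groups in the mitochondrial share of reads (5.39 to 6.11%, HF_C 4.77 to 4.97%). The margin is narrow for HF_TZD_C and HF_TZD_KO, which each reach 5.38%. After TMM scaling, HF_TZD_KO reaches 6.33%, inside the LF_C range (5.86 to 7.51%). The nuclear share of reads in LF_C overlaps that of HF_C (0.904 to 1.04%, LF_C 0.977 to 1.15%).

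**Figure D3:**
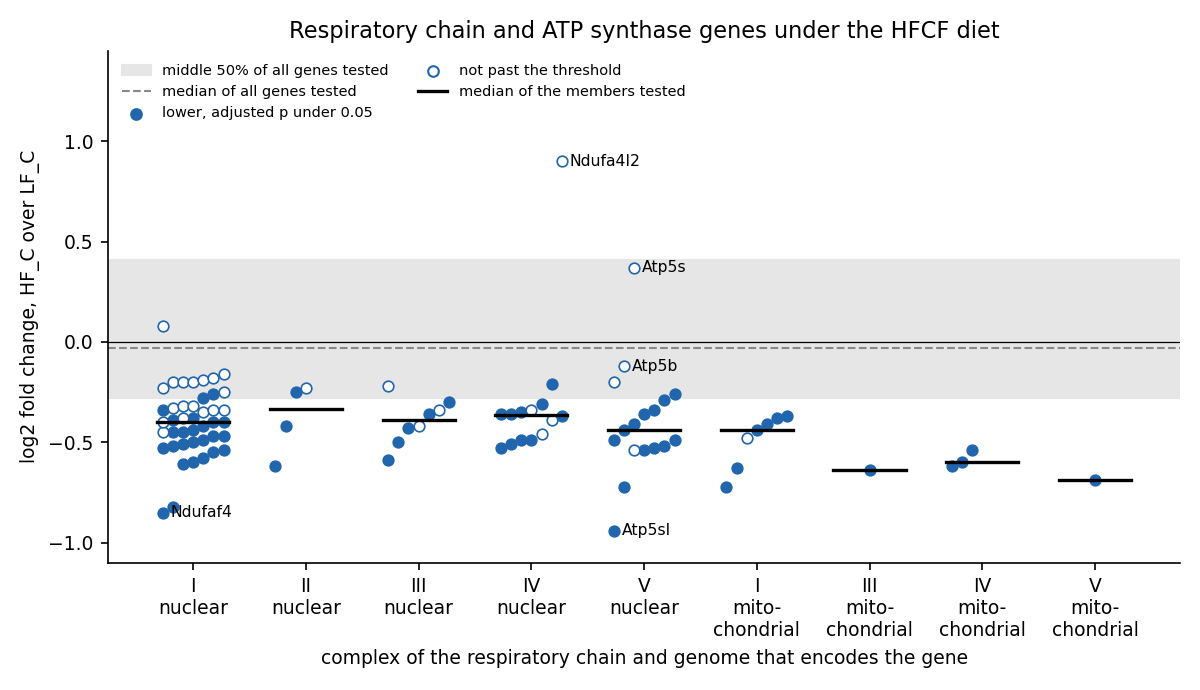
Log2 fold change of HF_C over LF_C for each member tested, by complex and by the genome that encodes it. Atp5sl is placed in complex V by its name. Filled points passed an adjusted p of 0.05, black bars are medians of the members tested, and the dashed line and band are the median (-0.03) and middle 50% (-0.28 to 0.41) of all genes tested.

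Per kilobase of gene length, the nuclear subunits stood at different levels by complex. The median level was 46.0 CPM per kilobase in HF_C and 58.9 in LF_C for the 36 subunits of complex I, the lowest of the 5. It was 116 in HF_C and 166 in LF_C for complex II, and 122 in HF_C and 152 in LF_C for complex III. Complex IV had 164 in HF_C and 229 in LF_C, and ATP synthase 103 in HF_C and 139 in LF_C. These levels rest on the deposited gene lengths, so genes annotated as long stand low per kilobase. Atp5g1, at 122 to 189 CPM in LF_C, had 30.3 CPM per kilobase there, the lowest of the ATP synthase subunits. Whether the lengths match the transcripts present in liver was not tested, so the order of the complexes is uncertain.

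Complex I, which takes electrons from NADH, had 25 of 43 nuclear members lower (median -0.40). Of the 7 core subunits, which carry the redox centres, 4 were lower (median -0.34), and of the 29 accessory subunits 16 were lower (median -0.39). The core subunits Ndufs1 (-0.16) and Ndufv1 (-0.20) did not pass. Of the 7 assembly factors Ndufaf1 to Ndufaf7, which build the complex without staying in it, 5 were lower. Ndufaf4 (ENSMUSG00000028261, chromosome 4, 24898083 to 24905001) had the smallest adjusted p of all members. It stood at 25.8, 22.8, 27.2, 24.9 and 22.3 CPM in HF_C and at 38.1, 44.6, 46.4 and 47.5 CPM in LF_C. The highest HF_C library lay well below the lowest LF_C library, and the log2 fold change was -0.85 (SE 0.09, adjusted p = 3.2e-05). Ndufaf6, another assembly factor (ENSMUSG00000050323, chromosome 4), fell by 0.82 on the log2 scale (adjusted p = 7.6e-04). Ndufb5, a subunit of the membrane arm (ENSMUSG00000027673, chromosome 3), fell by 0.60 (adjusted p = 0.00188), but its exons overlap those of Mrpl47 on the other strand and the libraries do not keep the strand. Ndufaf5 (-0.19) and Ndufaf7 (0.08) did not pass.

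Complex II, the succinate dehydrogenase that also serves the citric acid cycle, is encoded wholly in the nucleus. Sdhd (ENSMUSG00000000171, chromosome 9, 50596338 to 50603849), a membrane anchor, stood at 163, 173, 141, 153 and 152 CPM in HF_C and at 246, 224, 226 and 258 CPM in LF_C. Each HF_C library lay below each LF_C library (log2 fold change -0.62, SE 0.08, adjusted p = 1.4e-04). The iron-sulfur subunit Sdhb fell by 0.42 (adjusted p = 0.0166) and the other anchor, Sdhc, by 0.25 (adjusted p = 0.0199). The catalytic flavoprotein Sdha had a log2 fold change of -0.23 and did not pass (adjusted p = 0.116). Sdhc lost its call without HF_C replicate 3 or 5 (adjusted p of 0.053 and 0.0551). Without a scaling factor Sdhc stood at 0.01 and Sdhb at -0.15, neither of them called.

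Complex III passes electrons from ubiquinol to cytochrome c, and 5 of its 8 nuclear members were lower (median -0.39). Uqcrh, the hinge protein (ENSMUSG00000063882, chromosome 4, 116066965 to 116075071), stood at 69.9, 79.1, 68.9, 78.7 and 75.9 CPM in HF_C and at 97.9, 88.6, 94.6 and 136 CPM in LF_C. All HF_C values were lower, and LF_C replicate 4 was the highest library (log2 fold change -0.50, SE 0.12, adjusted p = 0.0052). On library totals it was no longer called (-0.22, adjusted p = 0.0798). The core protein Uqcrc2 (-0.22) did not pass (adjusted p = 0.0565), but did with DESeq2 (0.0376) and without LF_C replicate 1 (0.0467) or HF_C replicate 2 (0.0433).

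Complex IV, cytochrome c oxidase, had 10 of 14 tested nuclear members lower (median -0.37). Cox6c (ENSMUSG00000014313, chromosome 15, 35925886 to 35938246), a small subunit, stood at 114, 139, 105, 127 and 122 CPM in HF_C and at 153, 150, 158 and 226 CPM in LF_C. The groups did not overlap (log2 fold change -0.51, SE 0.13, adjusted p = 0.00665), and exons of Vps13b overlap Cox6c on the other strand. On library totals it was no longer called (-0.24, adjusted p = 0.0695). Cox7a2l, a factor that joins complexes III and IV into supercomplexes, fell by 0.21 (adjusted p = 0.0251) with TMM but had a log2 fold change of 0.05 without a scaling factor, and its call was lost without LF_C replicate 1 or any 1 of HF_C replicates 1, 3, 4 and 5 (adjusted p from 0.0504 to 0.0675).

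Of the 17 nuclear members placed in ATP synthase by name, Atp5sl among them, 13 were lower (median -0.44). Atp5sl (ENSMUSG00000057229, chromosome 7, 25619414 to 25625551), which RefSeq lists as Dmac2 and whose human counterpart is known as an assembly factor of the membrane arm of complex I, had the largest log2 fold change of the members tested. It stood at 32.2, 29.8, 29.9, 28.0 and 25.4 CPM in HF_C and at 51.1, 42.2, 49.5 and 78.4 CPM in LF_C. The groups did not overlap (log2 fold change -0.94, SE 0.15, adjusted p = 4.8e-04), and LF_C replicate 4 was again the highest. Atp5g1 (ENSMUSG00000006057, chromosome 11, 96068852 to 96075670), 1 of 3 genes for the c subunit of the rotor, stood at 87.1, 95.6, 80.1, 80.4 and 92.0 CPM in HF_C and at 133, 122, 127 and 189 CPM in LF_C. Its log2 fold change was -0.72 (SE 0.12, adjusted p = 6.9e-04), against -0.41 for Atp5g3 (adjusted p = 0.0386) and -0.20 for Atp5g2 (adjusted p = 0.0739), which encode the same mature protein. Atp5g3 lost its call without LF_C replicate 1, 3 or 4 or HF_C replicate 1, 3, 4 or 5 (adjusted p from 0.0506 to 0.101). Atp5b, the catalytic beta subunit and the highest of the nuclear subunits per kilobase, had a log2 fold change of -0.12 (adjusted p = 0.281).

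**Figure D4:**
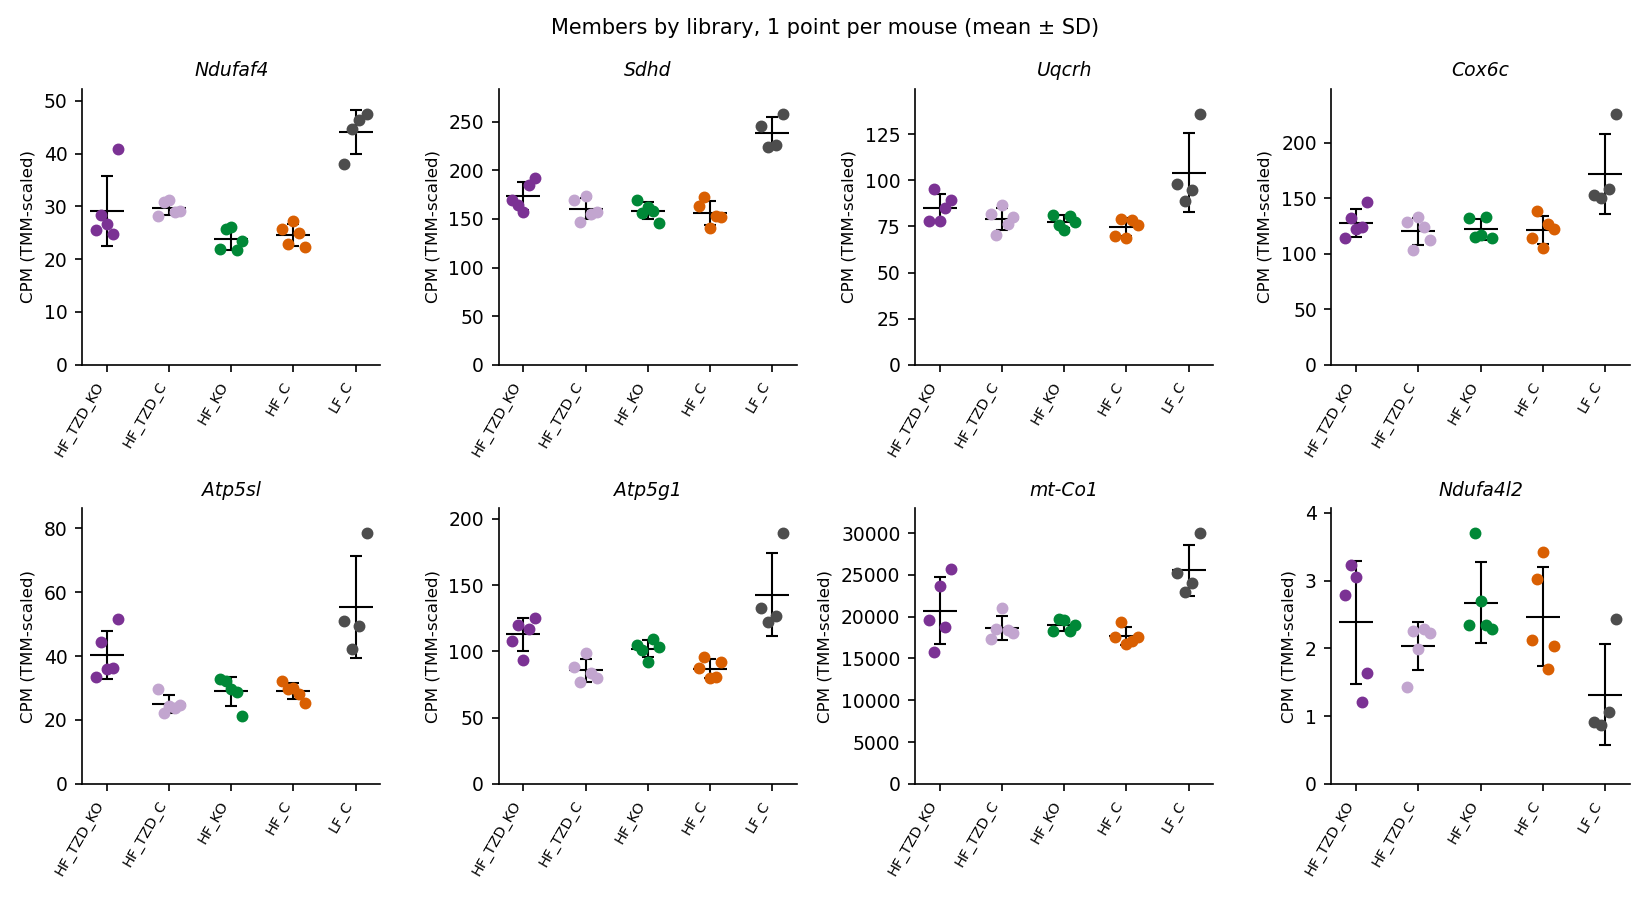
CPM of 8 members in every library, 1 point per mouse, with mean ± SD by group on axes that start at 0. Ndufaf4, Sdhd, Uqcrh, Cox6c, Atp5sl, Atp5g1 and mt-Co1 average highest in LF_C, while Ndufa4l2 is low throughout (at most 3.70 CPM).

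Among the mitochondrial genes whose reads are not shared with the chromosome 1 copies, mt-Nd1 (MT, 2751 to 3707), a complex I subunit, stood at 5250, 5185, 5233, 5314 and 5012 CPM in HF_C and at 6823, 6481, 6814 and 7363 CPM in LF_C. The groups did not overlap (log2 fold change -0.41, adjusted p = 0.00347). mt-Nd6, the only member encoded on the other strand of the mitochondrial genome, stood at 1122, 1107, 1034, 1167 and 1198 CPM in HF_C and at 1518, 1312, 1512 and 1485 CPM in LF_C, also without overlap (log2 fold change -0.38, adjusted p = 0.00423). Its end overlaps mt-Nd5. mt-Cytb, the cytochrome b of complex III, stood at 7917, 8408, 6911, 7534 and 7524 CPM in HF_C and at 11885, 9883, 11088 and 14428 CPM in LF_C. Here too the groups were apart (log2 fold change -0.64, adjusted p = 0.00175).

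mt-Co1, the catalytic subunit of complex IV and the most abundant member, stood at 17583, 19393, 16761, 17057 and 17623 CPM in HF_C and at 25176, 22999, 24014 and 29969 CPM in LF_C. All HF_C libraries lay below the LF_C libraries (log2 fold change -0.54, SE 0.12, adjusted p = 0.00356). mt-Atp6, a proton channel subunit of ATP synthase whose count is uncertain as above, stood at 20.6, 19.7, 19.5, 22.5 and 22.6 CPM in HF_C and at 32.7, 28.3, 28.3 and 45.0 CPM in LF_C (log2 fold change -0.69, adjusted p = 0.00154). mt-Nd2 (-0.44), mt-Nd4 (-0.63), mt-Nd5 (-0.37), mt-Nd3 (-0.72), mt-Co2 (-0.60) and mt-Co3 (-0.62) were lower as well. On library totals mt-Nd1 (-0.15), mt-Nd2 (-0.17), mt-Nd5 (-0.10) and mt-Nd6 (-0.12) no longer passed.

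Several complex IV subunits exist as forms for liver and for other tissues. Per kilobase, the median level over 24 libraries of the muscle form Cox7a1 was 2.54% of that of Cox7a2. The median was 0.596% for Ndufa4l2 of Ndufa4, 0.200% for Cox6b2 of Cox6b1, 0.127% for Cox4i2 of Cox4i1, 0.0298% for Cox6a2 of Cox6a1 and 0 for Cox8b of Cox8a. Cox8b had at most 5 reads in any library, and 13 of the 24 libraries had none. The liver forms Cox4i1 (-0.36, adjusted p = 0.045), Cox6b1 (-0.31, 0.0369), Cox7a2 (-0.37, 0.0137), Cox8a (-0.36, 0.0241) and Ndufa4 (-0.35, 0.0243) were lower under the diet, and Cox6a1 (-0.34, 0.062) did not pass. On library totals these 5 stood between -0.11 and -0.04 and none passed. Cox4i1 lost its call without LF_C replicate 4 (adjusted p = 0.0824) or any 1 of the HF_C libraries (0.0505 to 0.103). Cox6b1 lost it without LF_C replicate 1 or 4 or HF_C replicate 1, 3, 4 or 5 (0.0551 to 0.0885). Cox8a did so without HF_C replicate 1 or 3 and Ndufa4 without HF_C replicate 1, 3 or 5 (0.0512 to 0.0622).

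Ndufa4l2, a paralogue of Ndufa4 known as a target of hypoxia-inducible factor, was low in all libraries. It stood at 2.13, 3.03, 3.43, 1.70 and 2.04 CPM in HF_C and at 0.918, 0.864, 1.06 and 2.43 CPM in LF_C. LF_C replicate 4 lay inside the HF_C range and the other LF_C libraries below it. The log2 fold change of 0.90 (SE 0.35) did not pass (adjusted p = 0.0569), but it did with DESeq2 (0.0277), on library totals (0.0143) and without LF_C replicate 4 (1.36, adjusted p = 0.00431). Exons of Shmt2 overlap Ndufa4l2, so its few reads are uncertain.

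The other genes of the pathway were described in lists of known components. These lists, and the regulators and single genes named from them, were tested with TMM scaling only, here and below. Their values on library totals were not tested. Mitochondrial ribosomal proteins, which translate the mt- genes, had 31 of 76 lower and 0 higher under the diet (median -0.27). Assembly factors of the complexes outside the Nduf names had 15 of 37 lower and 0 higher (median -0.31). Genes of mitochondrial DNA maintenance and expression had 12 of 26 lower and 0 higher (median -0.30), electron carriers and Q-linked dehydrogenases 6 of 17 lower and 0 higher (-0.26), and import and chaperone genes 8 of 22 lower and 0 higher (-0.25). The citric acid cycle list was mixed, with 6 of 14 lower and 1 higher (-0.16). The shares lower in these lists, 35.3% to 46.2%, stand beside 19.2% of all genes.

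Among regulators of these genes, 6 of 15 were lower and 2 higher, against 19.2% lower and 21.4% higher of all genes. Ppargc1a, a coactivator of mitochondrial gene programs, had 13.2 ± 1.72 CPM in HF_C, against 20.7 ± 3.80 in LF_C (log2 fold change -0.66, adjusted p = 0.00244). Its relative Ppargc1b (-0.81, adjusted p = 0.0051) and the nuclear receptor Esrra (-0.62, 0.00154), which acts with both, were lower as well. Tfam, which packages and transcribes mitochondrial DNA, had 43.3 ± 2.88 CPM in HF_C, against 64.8 ± 5.75 in LF_C (-0.59, adjusted p = 1.6e-04). Gabpa, an ETS factor, fell by 0.36 (adjusted p = 0.00322), though its exons overlap those of Atp5j. Nrf1, nuclear respiratory factor 1, had 13.1 ± 1.64 CPM in HF_C, against 13.1 ± 0.894 in LF_C (-0.01, adjusted p = 0.952). Cycs, the electron carrier cytochrome c, did not pass (-0.26, adjusted p = 0.0796). Ucp2, a carrier of the mitochondrial inner membrane, was higher (98.1 ± 12.9 CPM in HF_C, against 41.9 ± 10.3 in LF_C, log2 fold change 1.21, adjusted p = 1.6e-04).

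Promoter sequences from RefSeq (GRCm38.p6, 250 bases before to 50 after the start) were found for 75 of the 90 nuclear members. They were searched on both strands for the letters GCGCATGCG (NRF1), TCAAGGTCA (ERR, the family of Esrra), CCGGAAGT (ETS/GABP, the family of Gabpa) and AAGATGGCG (YY1). NRF1 letters were in 10 of 75 members (13.3%) and in 1.95% of 27025 genes with a promoter, and YY1 letters in 8 (10.7%) and in 1.64% of genes. ETS/GABP letters were in 5 (6.67%) and in 4.31% of genes, and ERR letters in 2 (2.67%) and in 0.466% of genes. Of the 75 members with a promoter, 49 were lower under the diet. Among members with a motif, 4 of 10 were lower for NRF1, 2 of 2 for ERR, 4 of 5 for ETS/GABP and 5 of 8 for YY1. These matches describe the sequence only. The promoter of 1 member for each motif is shown, taken from those described above, with the motif in capitals.
Ndufaf4 (NRF1, chr4:24897833-24898132, plus strand): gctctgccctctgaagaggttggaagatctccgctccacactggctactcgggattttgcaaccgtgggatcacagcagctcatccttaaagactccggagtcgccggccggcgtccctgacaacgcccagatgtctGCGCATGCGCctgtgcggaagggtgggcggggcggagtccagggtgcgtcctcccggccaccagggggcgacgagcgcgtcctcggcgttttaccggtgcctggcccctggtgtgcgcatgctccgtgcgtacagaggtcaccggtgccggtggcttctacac
Sdhd (ERR, read on the reverse strand, chr9:50603800-50604099, minus strand): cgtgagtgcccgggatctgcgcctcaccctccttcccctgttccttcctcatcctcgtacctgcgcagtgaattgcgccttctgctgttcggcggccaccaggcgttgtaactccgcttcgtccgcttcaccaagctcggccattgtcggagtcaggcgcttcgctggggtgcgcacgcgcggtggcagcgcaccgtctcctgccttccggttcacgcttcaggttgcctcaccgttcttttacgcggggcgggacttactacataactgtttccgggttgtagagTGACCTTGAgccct
Uqcrh (ETS/GABP, read on the reverse strand, chr4:116075021-116075320, minus strand): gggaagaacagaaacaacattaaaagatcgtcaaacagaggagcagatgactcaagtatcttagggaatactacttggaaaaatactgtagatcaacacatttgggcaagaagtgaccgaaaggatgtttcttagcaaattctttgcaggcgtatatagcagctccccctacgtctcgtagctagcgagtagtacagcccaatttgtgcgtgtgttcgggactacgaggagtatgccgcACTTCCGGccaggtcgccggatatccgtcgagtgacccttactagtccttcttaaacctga
Atp5sl (YY1, chr7:25619164-25619463, plus strand): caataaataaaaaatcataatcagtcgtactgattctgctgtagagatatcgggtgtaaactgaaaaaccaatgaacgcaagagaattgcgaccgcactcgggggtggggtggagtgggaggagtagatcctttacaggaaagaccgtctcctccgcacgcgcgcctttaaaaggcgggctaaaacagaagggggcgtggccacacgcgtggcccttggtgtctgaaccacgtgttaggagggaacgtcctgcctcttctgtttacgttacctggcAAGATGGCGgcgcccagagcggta

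Markers of liver cell types differed along with the diet. Of 10 hepatocyte markers 8 were lower in HF_C and 0 higher, and their summed level ran from 51847 to 60917 CPM in HF_C and from 85019 to 117402 CPM in LF_C. Stellate cell and fibroblast markers were higher in 8 of 8, cholangiocyte markers in 6 of 6 and macrophage markers in 6 of 7 tested. The part of cell composition in the lower member levels was not tested. Of the adipocyte markers, Adipoq, Plin1, Retn and Ucp1 had fewer than 10 reads in every library, and Lep was not among the genes counted. Only 1 adipocyte marker could be tested, and it was higher under the diet, with a log2 fold change of 5.52. Gene length also moved with the fold change. Nuclear members of at least 500 and under 1000 bases had 28 of 39 lower (median -0.45). Among all genes of that length, 20.5% were lower (median -0.16). Nuclear members of at least 2000 bases had 10 of 16 lower (median -0.34). Among all genes of that length, 18.4% were lower (median -0.00). The part of length was not tested.

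Without the drug, the libraries labelled knockout had no member called different from HF_C. In HF_KO against HF_C, 0 of 98 members were called by edgeR's quasi-likelihood test and 0 by DESeq2, where edgeR called 1.02% of all genes. At an unadjusted p under 0.05, 3 members passed (3.06%), against 11.1% of all genes. Median log2 fold changes were 0.00 for nuclear and 0.10 for mitochondrial members. Mitochondrial members took between 4.76 and 5.16% of reads in HF_KO and between 4.77 and 4.97% in HF_C. Atp5g1 was the nearest to a call (92.0 to 109 CPM in HF_KO, 80.1 to 95.6 CPM in HF_C, log2 fold change 0.23, adjusted p = 0.142). With changes of 0.5 log2 simulated for this comparison, 61% were recovered, so smaller differences may be missed. The simulation gave every gene the same spread between mice, so the recovery for the members themselves was not tested.

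With rosiglitazone in control mice, 1 member passed the test. In HF_TZD_C against HF_C, 1 of 86 nuclear members was higher and 0 lower, against 2.69% higher and 2.61% lower of all genes, and 0 of 12 mitochondrial members were called. The 1 member was Ndufaf4, the assembly factor that was lowest by adjusted p under the diet. It stood at 28.2, 30.9, 31.3, 28.9 and 29.2 CPM in HF_TZD_C and at 25.8, 22.8, 27.2, 24.9 and 22.3 CPM in HF_C. No library of one group overlapped the other, as in 2.92% of all genes above and 3.15% below (log2 fold change 0.27, SE 0.07, adjusted p = 0.0317). The call was lost without HF_C replicate 2, 4 or 5 or HF_TZD_C replicate 2, 3 or 5 (adjusted p from 0.0623 to 0.0823), and on library totals (0.0639). This comparison and that of the diets share the HF_C libraries. At an unadjusted p under 0.05, 4 members passed, against 19.1% of all genes. The median was -0.06 for nuclear and -0.01 for mitochondrial members.

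In the libraries labelled knockout, the drug gave no call by edgeR's quasi-likelihood test. In HF_TZD_KO against HF_KO, 0 of 98 members passed, against 0.735% of all genes, and 12 had an unadjusted p under 0.05 (all genes, 15.3%). DESeq2 called 1 member, Atp5sl (log2 fold change 0.48, adjusted p = 0.0349), which lay at 33.3 to 51.6 CPM in HF_TZD_KO and 21.4 to 32.9 CPM in HF_KO. It was the 1 member above with no overlap, against 1.91% of all genes. Mitochondrial members spread more widely in HF_TZD_KO than in the other 4 groups, from 3.97 to 5.38% of reads, against 4.76 to 5.16% in HF_KO.

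**Figure D5:**
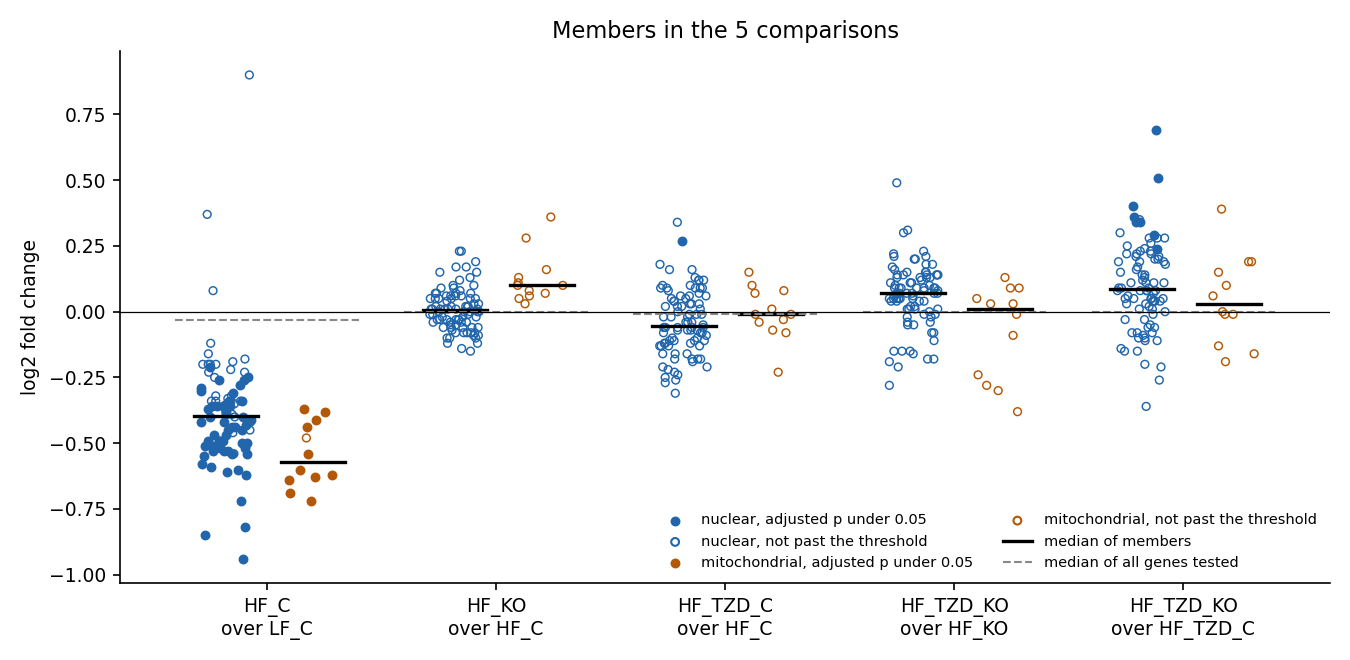
Log2 fold changes of nuclear and mitochondrial members in the 5 comparisons, with filled points past an adjusted p of 0.05, black bars at the members' medians and dashed lines at the medians of all genes tested. The members lie below 0 in HF_C over LF_C (medians -0.39 and -0.57) and around 0 in the others.

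Under the drug, a few nuclear members were higher in the libraries labelled knockout. In HF_TZD_KO against HF_TZD_C, 8 of 86 nuclear members (9.30%) were higher and 0 lower, beside 8.53% higher and 7.81% lower of all genes, so the share was near the background. None of the 12 mitochondrial members was called, and the medians were 0.09 for nuclear and 0.03 for mitochondrial members. On library totals the median of all genes moved to -0.16 and the calls to 1 higher (Atp5sl) and 15 lower, with 5.07% of all genes higher and 20.0% lower. Relative to all genes the nuclear median was 0.08 on either scale.

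The 8 members were Atp5sl, Atp5g1, Ndufb10, Ndufb8, Ndufa6, Atp5l, Atp5h and Ndufaf6, split evenly between complex I and ATP synthase by name. Atp5sl stood at 33.3, 44.3, 36.1, 36.2 and 51.6 CPM in HF_TZD_KO and at 29.7, 22.1, 24.4, 23.7 and 24.7 CPM in HF_TZD_C. The groups did not overlap (log2 fold change 0.69, SE 0.12, adjusted p = 0.00187). Ndufb10, an accessory subunit of the membrane arm of complex I (ENSMUSG00000040048, chromosome 17), stood at 71.5, 90.8, 74.5, 77.5 and 92.7 CPM in HF_TZD_KO and at 67.6, 61.4, 68.8, 61.4 and 63.0 CPM in HF_TZD_C. Again the groups were apart (log2 fold change 0.34, SE 0.08, adjusted p = 0.0133). Ndufb8, of the same arm, also did not overlap between groups (0.34, adjusted p = 0.0134). Over nuclear members, 5 lay above with no overlap and 0 below, against 6.93% and 7.33% of all genes.

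The other 5 overlapped between the groups. The c subunit gene Atp5g1 had a log2 fold change of 0.40 (adjusted p = 0.00955) and the accessory subunit Ndufa6 one of 0.36 (0.0241). Ndufaf6 had 0.51 (0.044), the ATP synthase subunit Atp5l 0.29 (0.0371) and the stalk subunit Atp5h 0.24 (0.0381). Leaving out 1 library gave between 4 and 11 nuclear members higher, with 4 without HF_TZD_C replicate 2, 4 or 5, and 5 without HF_TZD_KO replicate 5. Ndufa6 lost its call without HF_TZD_C replicate 2, 4 or 5 (adjusted p from 0.0525 to 0.067). Atp5l lost it without HF_TZD_C replicate 2, 4 or 5 or HF_TZD_KO replicate 2, 3 or 5 (0.061 to 0.0904). Atp5h lost it without HF_TZD_C replicate 2, 4 or 5 or HF_TZD_KO replicate 3, 4 or 5 (0.0578 to 0.1), and Ndufaf6 without HF_TZD_C replicate 1, 2, 4 or 5 or HF_TZD_KO replicate 2, 3, 4 or 5 (0.0555 to 0.111). Of the 8 members, 4 share windows with other annotated genes or pseudogenes (16.2% for Atp5h, 6.22% for Atp5g1, 2.03% for Atp5l and 1.71% for Ndufb8), so their counts may hold or lose a few reads.

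Beside these members, 7 of 10 hepatocyte markers were higher and 1 lower in HF_TZD_KO, with a summed level of 81042 to 115363 CPM in HF_TZD_KO and 43790 to 54236 CPM in HF_TZD_C. The part of this in the members' values was not tested. Of the lists, the citric acid cycle had 7 of 14 genes lower and 0 higher (median -0.23), against 7.81% of all genes lower. Cycs was lower (76.9 ± 6.90 CPM in HF_TZD_KO, 94.0 ± 4.36 CPM in HF_TZD_C, log2 fold change -0.29, adjusted p = 0.0128), and so was Ucp2 (-0.69, adjusted p = 0.0381). Ppargc1a was higher, at 18.3 ± 2.46 CPM in HF_TZD_KO and 12.7 ± 2.01 CPM in HF_TZD_C (0.53, adjusted p = 0.0122). Tfam (0.04), Nrf1 (-0.07) and Esrra (0.20) did not pass. Mitochondrial ribosomal proteins had 0 of 76 higher and 1 lower.

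The difference between the drug's effects in the 2 genotypes was tested in 1 fit of HF_TZD_KO, HF_KO, HF_TZD_C and HF_C. Of 88 nuclear members tested, 1 passed, Atp5sl, against 1.56% higher and 0.892% lower of all genes. Its drug effect was 0.49 in HF_TZD_KO against HF_KO and -0.22 in HF_TZD_C against HF_C, neither past the threshold alone (the second was without HF_TZD_C replicate 1, adjusted p = 0.0478), and the difference was 0.71 (SE 0.17, adjusted p = 0.0298). The call was lost without HF_C replicate 1, HF_KO replicate 4 or HF_TZD_C replicate 2 or 5 (adjusted p from 0.0515 to 0.0695), and on library totals (0.0585). No mitochondrial member of 12 passed, and Ndufaf4 showed no difference past the threshold (0.03, adjusted p = 0.954). The power may be limited here. With the same spread between mice simulated for every gene, 12% of differences of 0.5 log2 and 91% of those of 1 log2 were recovered. The members' own spread was not simulated.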

How the data were processed

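Whole-liver RNA of 24 mice was sequenced, 1 library per mouse. Reads were aligned with STAR 2.6.1 and counted with HTSeq 0.6.1 on GRCm38/mm10, per the submitters' processing notes, and the libraries do not keep the strand, per the labels' protocols. How reads matching several places were counted, the read length and the annotation release are not given in the sources used here. The 5 deposited tables hold raw counts per gene, which were used, beside normalized signal values, FPKM, log2 fold changes and p-values of the authors' own comparisons and gene lengths. The authors' normalized signal and FPKM values, deposited in the same tables, were not tested.

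Counts were joined by gene ID. Counts shared between tables differed in 0 cells, and 17482 cells for genes missing from a table were set to 0. Totals ran from 19.5 to 28.7 M reads. Counting intervals are not given, since the spread between mice is the error used.

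Each comparison was fitted on its own groups, and the interaction on 4 groups, with edgeR 4.0.16 (R 4.3.3): filterByExpr with a minimum count of 10 and a minimum total of 15, TMM scaling, the quasi-likelihood test and Benjamini-Hochberg adjustment over all genes tested. Of the members, 98 passed this filter in each comparison and 100 in the interaction. Cox4i2, Cox6a2, Cox6b2, Cox8b and mt-Atp8 did not pass it in the comparisons. Alternatives were RLE scaling, library totals, no filter, DESeq2 1.42.0, 1 fit of all 24 libraries, the replicate block and leaving out each library. The fits were tested on simulated data with known changes in genes drawn from the whole table, with the same dispersion for every gene. Replicate pairs of a group differed by 10.9 to 67.7 times sampling noise (chi-square over degrees of freedom), so no library was counted as a repeat.

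Sequence windows of 100 bases were compared within GENCODE vM21 transcripts, and promoters came from RefSeq (GRCm38.p6). Named members were all mt- genes, up to 6 nuclear members per direction and comparison with the smallest adjusted p, the nuclear member with the smallest adjusted p of each complex, the Sdh genes and the tissue isoform pairs with Cox7a2l. Ndufs1, Ndufv1, Ndufaf5, Ndufaf7, Uqcrc2, Atp5b, Atp5g2, Atp5g3 and Atp5s were named after their values were seen, as were Atp5h and Ndufaf6 in HF_TZD_KO against HF_TZD_C, Atp5g1 in HF_KO against HF_C and Atp5sl in HF_TZD_KO against HF_KO. Atp5sl in HF_TZD_C against HF_C and Ndufaf4 in the interaction were also named after their values were seen. The members and lists were chosen with earlier results of these data known.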

Additional observations from a re-analysis of the deposited data

Results flagged for a closer look

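The values tested were 17 items, namely the nuclear and the mitochondrial summed share and single members. Of 85 groups of values, 6 held a library far from the rest of its group, where chance flags about 1 group in 20. LF_C replicate 4 stood at 189 CPM for Atp5g1, against 122 to 133 CPM in the other LF_C libraries, and at 129 CPM for Atp5l, against 72.8 to 77.1 CPM. HF_TZD_KO replicate 5 stood at 40.8 CPM for Ndufaf4, against 24.7 to 28.3 CPM in the other HF_TZD_KO libraries, and at 14.2 CPM for Ndufaf6, against 9.41 to 10.6 CPM. These are the 2 libraries with the lowest scaling factors, and the part of the scaling in these values was not tested. HF_C replicate 2 stood at 10.2 CPM for Ndufaf6, against 7.64 to 7.98 CPM in the other HF_C libraries. LF_C replicate 2 had the lowest value of mt-Nd6, 1312 CPM, against 1485 to 1518 CPM in the other LF_C libraries.

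The effect of rosiglitazone on Atp5sl differed between the libraries labelled knockout and control by 0.71 on the log2 scale (edgeR interaction term, adjusted p = 0.0298). Atp5sl was the 1 member called of 88 nuclear members, against 1.56% higher and 0.892% lower of all genes. The call was lost on library totals (adjusted p = 0.0585), in the fit of all 24 libraries (0.0862) and with the replicate block (0.055). Leaving out HF_C replicate 1, HF_KO replicate 4 or HF_TZD_C replicate 2 or 5 also lost it.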

How the results depend on the processing

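For HF_C against LF_C, library totals gave 3 nuclear members higher, 8 lower and 7 mitochondrial lower. DESeq2 and the fit of all 24 libraries each gave 1 nuclear higher. Sdhc (0.01) and Cox7a2l (0.05) changed sign on library totals. For HF_TZD_KO against HF_TZD_C, nuclear members higher numbered 1 on library totals, 5 without a filter and 4 in the fit of all 24, and 15 and 1 were lower on library totals and in the fit of all 24. DESeq2 called 1 mitochondrial member higher there, 1 in HF_TZD_C against HF_C, and 1 nuclear member in HF_TZD_KO against HF_KO. The fit of all 24 called 0 members in HF_TZD_C against HF_C and 0 in the interaction, as did library totals for the interaction. With TMM, the summed share differed by -0.237 (nuclear) and -1.94 (mitochondrial) percentage points for HF_C minus LF_C. On shares of counted reads these were -0.0488 and -0.918. The direction turned in 4 differences. For HF_TZD_KO minus HF_KO they were 0.0466 (nuclear) and 0.235 (mitochondrial) with TMM, against -0.0240 and -0.171 on shares of counted reads. For HF_TZD_KO minus HF_TZD_C they were 0.0129 (nuclear) and 0.351 (mitochondrial) with TMM, against -0.0975 and -0.244. The cause was not tested.

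Replicate numbers did not pair the samples (correlations of same-numbered deviations from -0.18 to 0.146). With the replicate block, 41 nuclear and 7 mitochondrial members were lower in HF_C, 0 members were called in HF_TZD_C against HF_C, 4 nuclear and 1 mitochondrial were higher in HF_TZD_KO against HF_TZD_C, and the interaction called 0.

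Leaving out 1 library gave 31 to 64 nuclear members lower, 0 to 1 higher and 11 to 11 mitochondrial lower in HF_C against LF_C. In HF_TZD_C against HF_C it gave 0 to 1 nuclear higher and 0 to 1 lower. In HF_TZD_KO against HF_TZD_C it gave 4 to 11 nuclear higher, 0 to 2 lower and 0 to 1 mitochondrial higher, and 0 to 1 in the interaction. The differences in summed share of reads, in percentage points for nuclear and then mitochondrial members, ran from -0.0668 to -0.00985 and -1.04 to -0.800 (HF_C minus LF_C), -0.0609 to -0.0272 and 0.115 to 0.215 (HF_KO minus HF_C), and 0.0101 to 0.0496 and 0.149 to 0.285 (HF_TZD_C minus HF_C). They ran from -0.0371 to -0.0130 and -0.310 to 0.0433 (HF_TZD_KO minus HF_KO), and from -0.115 to -0.0756 and -0.383 to -0.0294 (HF_TZD_KO minus HF_TZD_C). Of the 67 members lower in HF_C, 65 were shared with RLE scaling, 67 with DESeq2 and 15 with library totals.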
